A study of Mus musculus with 3 samples.

Results

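Esr1-detected luminal cells of the mouse prostate are secretory epithelial cells whose droplet held at least 2 molecules of RNA from Esr1, the gene of estrogen receptor alpha. Luminal barcodes were those with at least 500 genes, at most 15% mitochondrial UMIs (unique molecular identifiers, each standing for 1 captured RNA molecule) and at least 5000 UMIs. They also had under 10% of UMIs from Svs1, Svs2, Svs3a, Svs3b, Svs4, Svs5 and Svs6, at least 0.5% from Pbsn and Tgm4, and under 5 UMIs of Krt5 and Krt14. Of 32139 barcodes in all, 6139 passed, and 2048 of these held at least 2 Esr1 UMIs and are the members. The other luminal barcodes held 1 Esr1 UMI (1797) or none (2294). Those with none, called Esr1-0 here, are the cells of comparison. The members were chosen by their Esr1 UMI counts, so Esr1 values are a description with no test.

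Whole prostate of C57BL6 mice aged 12 to 15 weeks was dissociated and profiled by droplet single-cell RNA sequencing. There is 1 library from Srd5a2 knockout (Srd5a2-/-) tissue and 2 from Srd5a2 heterozygous (Srd5a2+/-) tissue, so the controls also carry 1 disrupted allele. All tissue was digested in a buffer that held dihydrotestosterone and a rock inhibitor, and no group had a further treatment. The sources used here do not give the number of animals per library or the deleted stretch of Srd5a2. The title of the series names ESR1+ luminal cells as contributors to prostate survival without SRD5A2.

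Srd5a2 encodes a steroid 5-alpha-reductase, which turns testosterone into dihydrotestosterone, the more potent androgen. Luminal cells line the prostatic ducts, make the proteins of prostatic fluid and depend on androgen. Estrogen receptor alpha is a nuclear receptor that binds estradiol, which aromatase makes from testosterone, and in the prostate it is best known from the stroma.

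Srd5a2 itself was nearly absent from the members, with 1 UMI in the knockout, 2 in heterozygote 1 and 3 in heterozygote 2, so its count does not check the genotype labels in these cells. The libraries held 129015041, 47601747 and 100801564 UMIs in the order knockout, heterozygote 1 and heterozygote 2, an order kept throughout. Pairs of libraries shared 15 to 57 barcode sequences, of which 0 to 2 were luminal. All 19 genes of a luminal identity list, among them Krt8, Krt18, Hoxb13 and Foxa1, had UMIs in the members of each library. Their summed level was 7630, 7387 and 7399 CPM (a gene's UMIs scaled to a common total) in depth-matched members, close to the 7782, 7496 and 7439 CPM of matched Esr1-0 barcodes.

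Members made up 464 of 1098, 497 of 1555 and 1087 of 3486 luminal barcodes, or 42.3%, 32.0% and 31.2%. The knockout had the largest share and the heterozygotes were close to each other. Just inside the limit, 192, 272 and 600 barcodes held exactly 2 Esr1 UMIs, and just outside it 289, 441 and 1067 held exactly 1. A tail of 113, 60 and 107 barcodes held 5 or more, and the highest count in a barcode was 21, 11 and 19. Members carried 85.7%, 76.8% and 74.5% of all Esr1 UMIs in luminal barcodes. Over all luminal barcodes, whatever their Esr1 count, Esr1 stood at 108, 97.9 and 87.2 CPM.

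The share of members moved with sequencing depth. Members had a median of 17289.5, 13477 and 16057 UMIs, against 12172, 9538 and 10031 in Esr1-0 barcodes and 14589, 10624 and 12019 in all luminal barcodes. Thinned to 5000 UMIs per barcode, the expected share with at least 2 Esr1 UMIs was 12.2% (exact Clopper-Pearson 95% interval 10.3 to 14.3) in the knockout. It was 10.4% (8.94 to 12.0) in heterozygote 1 and 8.05% (7.15 to 8.98) in heterozygote 2. The knockout stayed highest, its interval overlapped that of heterozygote 1 and not that of heterozygote 2, and the heterozygotes differed from each other by more than the knockout differed from heterozygote 1. With 1 UMI as the limit the thinned shares were 37.4%, 36.4% and 33.8%. These shares were not tested between genotypes, since an exact permutation test of 1 library against 2 cannot go below p = 0.333, and the intervals cover counting error only.

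**Figure D1:**
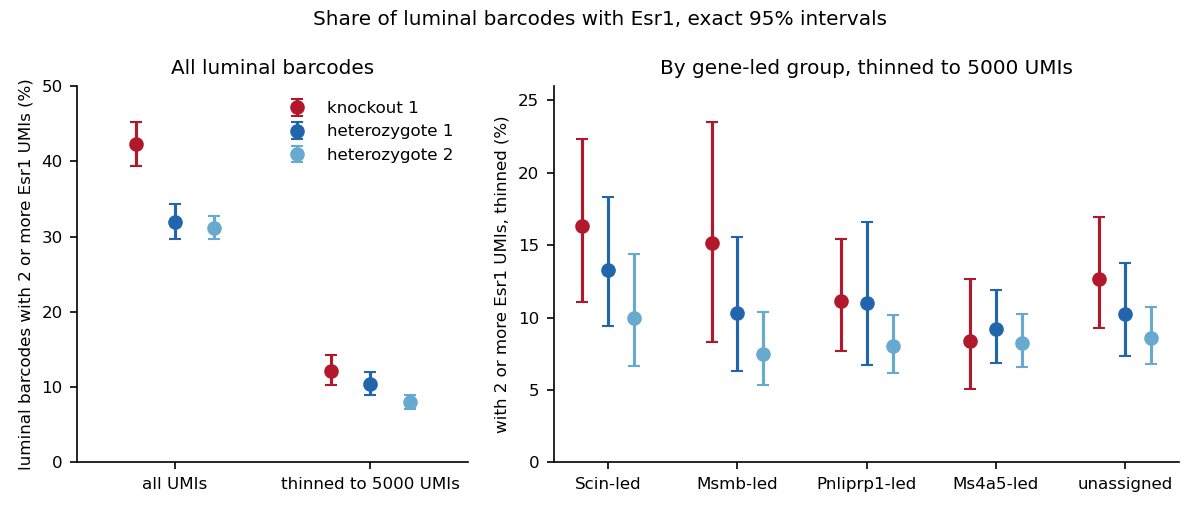
Share of luminal barcodes with at least 2 Esr1 UMIs (y axis, percent) by library (colour), with exact 95% intervals as bars, for all UMIs and after thinning to 5000 UMIs (left) and by gene-led luminal group after thinning (right). The knockout falls from 42.3% to 12.2% on thinning, and the Scin-led group is the highest in each library, with intervals that overlap those of the other groups.

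At equal depth luminal barcodes held Esr1 more often than barcodes with immune markers. Thinned to 1000 UMIs, 10.2%, 9.44% and 8.34% of luminal barcodes held an Esr1 UMI. Barcodes with at least 5 UMIs of an immune marker list and at most 2 of a fibroblast list gave 1.46%, 1.34% and 1.28%, at median depths of 14611, 10079.5 and 12833 UMIs before thinning. Not thinned, 11.9%, 8.39% and 11.8% of them held an Esr1 UMI, so they are no background free of Esr1. Those barcodes were a mixed population, and a stricter set with 1% of UMIs from the immune list gave 1.42% of 175, 1.49% of 63 and 0 of 105 barcodes, a 0 that allows a share of up to 2.86% at a floor of 3 counts (3.45% by the exact 95% limit). Fibroblast-marker barcodes, of the stroma known to carry Esr1, gave 5.04%, 4.17% and 5.15%, below the luminal share in each library, at median depths of 4511.5, 3883 and 3603 UMIs. The stricter fibroblast set, with 1% of UMIs from its list, gave 6.98%, 3.92% and 6.22%, and its interval in heterozygote 2 (3.85 to 9.46) held the luminal share.

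Members were found in every luminal group of more than 1 barcode. Groups were named for the genes that led them: Scin, which severs actin filaments, Ms4a5, Pnliprp1, a relative of pancreatic lipase, and Msmb, the secreted beta-microseminoprotein. After thinning, the Scin-led group had 16.3%, 13.3% and 9.97% of barcodes with at least 2 Esr1 UMIs. The Msmb-led group had 15.2%, 10.3% and 7.52%, the Pnliprp1-led group 11.1%, 11.0% and 8.06%, and the Ms4a5-led group 8.39%, 9.19% and 8.23%. The Scin-led share was the highest in each library, with intervals that overlapped those of the other groups. The knockout was above both heterozygotes in the Scin-led, Msmb-led and Pnliprp1-led groups and not in the Ms4a5-led group. A Spink5-led group held 1 knockout barcode, and in the heterozygotes it had 9.18% of 34 and 4.99% of 283 barcodes. The group genes came from earlier clusters of these same cells.

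To ask which genes accompany Esr1, each member was paired with an unused Esr1-0 barcode of its library within 10% in total UMIs. This kept 296, 384 and 804 pairs, with median depths of 14099, 11428 and 13481 UMIs in members and 12820.5, 11084 and 12501.5 in Esr1-0 barcodes. Summed per library and class and tested with edgeR's quasi-likelihood test with library as a block, 740 of 11886 genes differed (6.23%) at an adjusted p under 0.05 (Benjamini-Hochberg over all genes tested). In members 370 were higher (3.11%) and 370 lower (3.11%). Without library as a block 0 genes passed and 202 had an unadjusted p under 0.05. Leaving out heterozygote 1 left 226 calls and leaving out heterozygote 2 left 138, of which 74.3% and 79% were higher.

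The genes that rose most did so modestly. The rule for named genes took only genes with 1 direction in all 3 libraries, so their shared direction is no result. Among the 10 chosen by the rule for named genes were E230016M11Rik, Sytl5, Cacng5, Sox5, Sim1, A430010J10Rik, Hdac8, Adarb2 and 5730419F03Rik. Sox5 and Sim1 are transcription factors, Hdac8 is a histone deacetylase, Adarb2 belongs to the family of RNA-editing adenosine deaminases, and the 3 Rik genes are annotated as noncoding. E230016M11Rik was at 58.2, 46.3 and 29.3 CPM in members and at 28.6, 32.5 and 17.3 CPM in Esr1-0 barcodes, a log2 fold of 0.76 ± 0.10 (SE; adjusted p = 0.0003). Adarb2 was at 174, 124 and 149 CPM against 112, 97.1 and 102, a log2 fold of 0.52 ± 0.06 (adjusted p = 0.00014). Both were higher in members in 3 of 3 libraries, which the rule required. Across libraries the levels of the classes overlapped for E230016M11Rik, while for Adarb2 all 3 member values lay above all 3 Esr1-0 values.

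The genes that fell most included secreted proteins of the prostate. By the rule they were 2310057J18Rik, Spink5, Sbp, Nupr1, Spink1, Krt15, Gadd45b, Wfdc3, Timp2 and Cbr2. Sbp, the spermine-binding protein of prostatic fluid, was at 66.5, 1541 and 6375 CPM in members and at 78.5, 9775 and 11369 in Esr1-0 barcodes, a log2 fold of -1.44 ± 0.27 (adjusted p = 0.006). Spink1, a secreted inhibitor of serine proteases, was at 159, 1038 and 3536 CPM against 185, 3518 and 6818, a log2 fold of -1.06 ± 0.16 (adjusted p = 0.0011). Nupr1, a stress-response regulator, was at 5.21, 58.5 and 137 CPM against 9.30, 129 and 303, a log2 fold of -1.13 ± 0.06 (adjusted p = 2.6e-08). All 3 genes were lower in members in 3 of 3 libraries, which the rule required. For Sbp and Spink1 the difference was small in the knockout, and the levels of the genotypes lay much further apart than those of the classes.

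In Esr1-0 barcodes of heterozygote 1, 10 of 384 barcodes held 94.4% of the Sbp UMIs and 90.8% of the Spink1 UMIs, although 382 and 371 had at least 1. In heterozygote 2 the 10 richest held 49.6% and 34.9%, and in the knockout 15.9% and 11.3%. Without heterozygote 1 the log2 fold of Sbp was -0.65 and that of Spink1 -0.66, and DESeq2 called neither (adjusted p = 0.80 and 0.47). For 2310057J18Rik, at a log2 fold of -2.87 ± 0.22, the 10 richest Esr1-0 barcodes of heterozygote 2 held 97.6% of the UMIs there, and without that library the log2 fold was -0.42 and did not pass. Nupr1 kept its call without any 1 library, with log2 folds of -1.14, -1.12 and -1.10, and its 10 richest Esr1-0 barcodes held 86.8%, 79.5% and 40.0% of its UMIs.

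**Figure D2:**
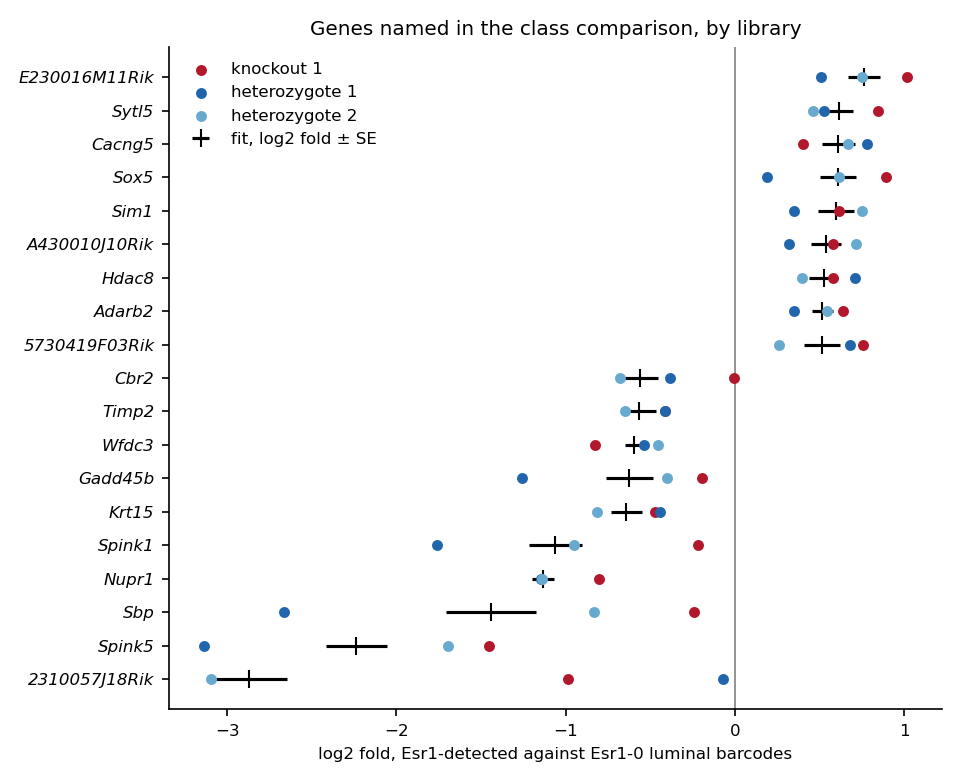
Log2 fold between Esr1-detected and depth-matched Esr1-0 luminal barcodes (x axis) for 19 genes named by the rule (y axis), in each library (coloured points) and from the fit with library as a block (black, ± SE). The 9 higher genes shown lie between 0.52 and 0.76, while the lower genes reach -2.87 and differ widely between libraries.

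Differences between the classes were ordered by the length of the gene. Of 2690 genes spanning at most 10 kb, 6 were higher and 262 lower in members. Of 470 spanning over 300 kb, 81 were higher and 1 lower. The median log2 fold over 5 classes of span was -0.13, -0.05, 0.05, 0.14 and 0.18, from shortest to longest. The order was the same in each library, from -0.16 to 0.25 in the knockout, from -0.13 to 0.15 in heterozygote 1 and from -0.10 to 0.17 in heterozygote 2. Genes called higher had a median span of 136.9 kb and genes called lower 5.73 kb, against 26.8 kb for all genes tested. Esr1 lies on chromosome 10 from 4611593 to 5005614 on the plus strand of mm10, spans 394 kb and so belongs to the longest class. The part of that length in which barcodes became members was not tested.

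Of 8 nuclear-retained RNAs tested, Malat1, Kcnq1ot1, Neat1 and Mir99ahg rose in members and none fell, with a median log2 fold of 0.34 against -0.01 over all genes. The log2 fold was positive for 6 of the 8. Malat1, an abundant nuclear noncoding RNA, was at 19742, 13608 and 6617 CPM in members and at 15326, 10998 and 5261 in Esr1-0 barcodes, a log2 fold of 0.33 ± 0.03 (adjusted p = 1e-05). It was higher in 3 of 3 libraries, although members of heterozygote 2 lay below the Esr1-0 barcodes of the other libraries. Kcnq1ot1, an antisense RNA of an imprinted region, was at 355, 266 and 184 CPM against 247, 203 and 132, a log2 fold of 0.46 ± 0.05 (adjusted p = 4.3e-05).

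Ribosomal protein genes went the other way. Of 35 cytosolic ribosomal protein genes tested 31 fell and none rose, with a median log2 fold of -0.16, and all 35 were lower in members in each library. Rpsa, of the small subunit, was at 1767, 1412 and 1332 CPM in members against 2078, 1552 and 1522, a log2 fold of -0.19 ± 0.04 (adjusted p = 0.0099).

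Pairing also on the share of UMIs from Malat1, within 25%, kept 246, 349 and 749 pairs and was added after the data were seen. Of 11627 genes tested 64 then differed, 24 higher and 40 lower, and 49 of them were among the 740. Of genes spanning over 300 kb 12 were higher, and of those up to 10 kb 20 were lower. E230016M11Rik (0.49), A430010J10Rik (0.48), Nrg1 (0.21) and Ern1 (0.28) still passed as higher. On the plus strand of chromosome 6, E230016M11Rik ends at 67080654 and A430010J10Rik starts at 67115673. Whether these neighbours are separate transcripts was not tested. Spink5 (-2.43), Sbp (-1.93), Nupr1 (-1.50), Spink1 (-1.41), Krt15 (-0.81) and Psca (-2.54) still passed as lower. Of the 10 named risers 8 no longer passed, among them Adarb2 at 0.22, and Msmb (0.15), Wfdc3 (0.12) and Defb50 (0.13) turned positive without passing.

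**Figure D3:**
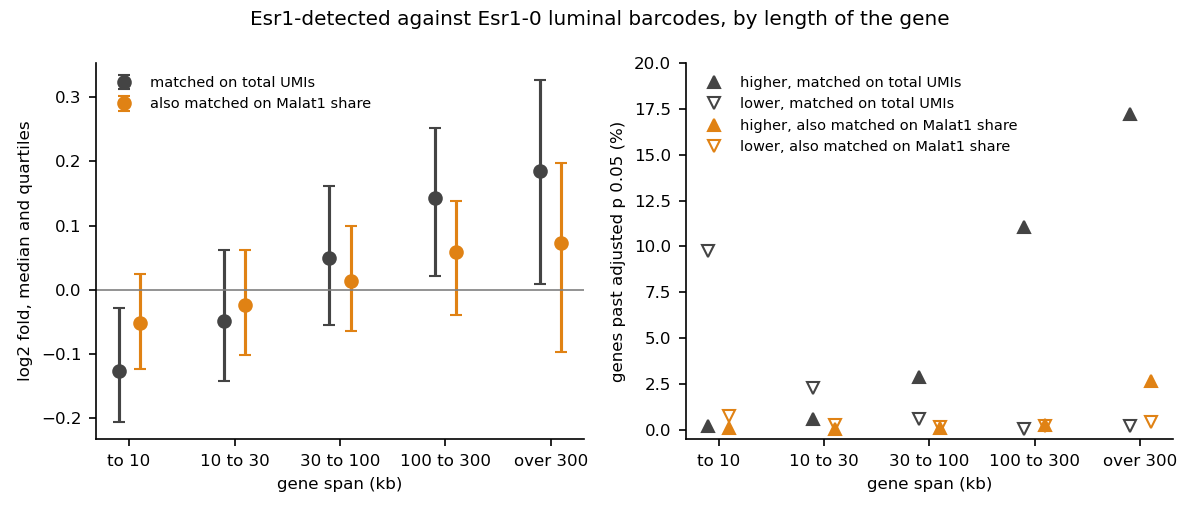
Left, log2 fold between Esr1-detected and Esr1-0 luminal barcodes (y axis, median with quartiles over genes) by gene span in kb (x axis), with pairing on total UMIs (grey) and also on the Malat1 share (orange). Right, the percent of genes past the threshold in each direction; of genes over 300 kb, 17.2% were higher with pairing on total UMIs and 2.66% with pairing also on the Malat1 share.

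Other receptors for steroids were present in both classes. Nr3c1, the glucocorticoid receptor, was at 44.8, 47.1 and 42.6 CPM in members against 42.6, 40.2 and 41.0 in Esr1-0 barcodes (log2 fold 0.11 ± 0.08, adjusted p = 0.47). Nr3c2, the mineralocorticoid receptor, was at 36.1, 28.4 and 35.6 CPM against 24.2, 26.5 and 33.2 (log2 fold 0.21 ± 0.10, adjusted p = 0.23). Both were higher in members in 3 of 3 libraries, neither of them past the threshold. Esr2, the gene of estrogen receptor beta, had 3, 11 and 33 UMIs in members and 4, 9 and 13 in Esr1-0 barcodes (log2 fold 0.64 ± 0.38, adjusted p = 0.37), too few to place it. Pgr, the progesterone receptor and a classic target of estrogen, had 24, 13 and 10 UMIs against 14, 10 and 11 (log2 fold 0.25 ± 0.33, adjusted p = 0.73).

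Of 25 nuclear receptors and cofactors tested, Esrrg and Greb1 rose and none fell, with a median log2 fold of 0.09. The share called higher over all genes was 3.11%. Esrrg, an orphan receptor related to the estrogen receptors, was at 78.4, 73.6 and 111 CPM in members against 59.0, 63.4 and 84.7, a log2 fold of 0.35 ± 0.06 (adjusted p = 0.0063). Greb1, a gene that estrogen induces in breast cells, was at 33.9, 54.5 and 20.5 CPM against 25.7, 40.6 and 16.4, a log2 fold of 0.38 ± 0.09 (adjusted p = 0.018). Both were higher in 3 of 3 libraries, with levels that overlapped between classes across libraries, and both genes span over 100 kb. Paired also on the Malat1 share they were at 0.17 and 0.33 and did not pass, and without heterozygote 2 their adjusted p was 0.12 and 0.093. Greb1 also did not pass without heterozygote 1 (adjusted p = 0.19), and DESeq2 called neither (0.17 and 0.55). Apart from Esr2, the others lay between -0.21 (Nr2f6) and 0.33 (Ppara). The coactivators Ncoa1, Ncoa2, Ncoa3 and Ppargc1a had log2 folds of 0.09, 0.21, 0.10 and 0.23. The corepressors Ncor1 and Nrip1 had 0.04 and 0.13. The retinoid receptors Rxra, Rxrb, Rara and Rarg had 0.00, -0.07, -0.13 and -0.20, and the lipid-sensing receptors Ppard and Pparg -0.06 and 0.19. Nr2f1 and Nr2f2 were both at -0.09 and Esrra at -0.00, and Vdr was too low to be tested.

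**Figure D4:**
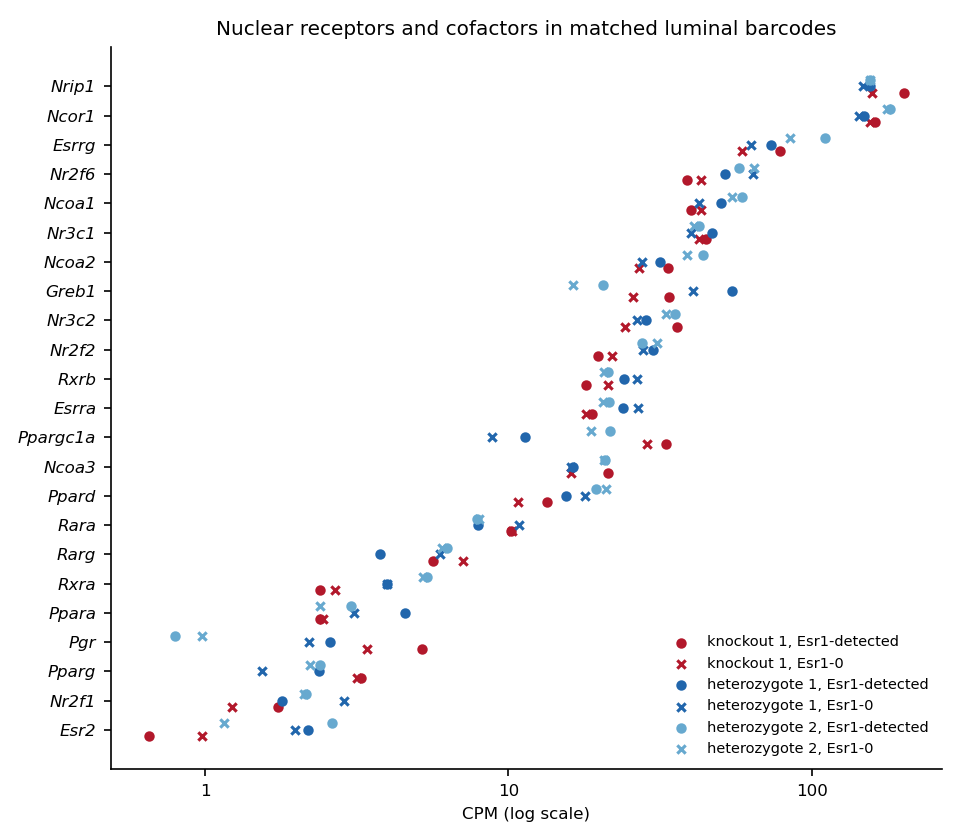
Level of 23 tested nuclear receptor and cofactor genes (y axis) in CPM on a log scale (x axis), in Esr1-detected (circles) and depth-matched Esr1-0 (crosses) luminal barcodes of each library (colour). Esrrg and Greb1, the 2 that passed the test, have the circle to the right of the cross in each library.

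Genes that estrogen is known to induce showed no common direction. Of 16 tested 1 rose, Greb1, and none fell, with a median log2 fold of -0.04 against -0.01 over all genes. Of all genes 3.11% were called higher and 3.11% lower. Areg, a ligand of the EGF receptor, was at 86.7, 25.4 and 9.23 CPM in members against 64.8, 36.2 and 11.2, higher in the knockout and lower in both heterozygotes. Prlr, the prolactin receptor, was at 146, 144 and 72.8 CPM against 119, 147 and 62.1 (log2 fold 0.16 ± 0.07, adjusted p = 0.17). Myc, at 77.8, 73.6 and 101 CPM against 73.4, 85.7 and 99.8, had a log2 fold of -0.03. The secretory regulator Xbp1 was at -0.09, the cyclin Ccnd1 at -0.13, the ligand Wnt4 at -0.16, Fos at -0.15 and Cited2 at -0.09. Gadd45a, Sgk1, Lcn2 and Ctsd were at -0.06, -0.01, -0.10 and 0.06. Another 10 of the list, among them Tff1, Tff3, Ltf and C3, were too low to be tested.

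Growth factor receptors and ligands rose in 4 of 22 and fell in none, with a median log2 fold of 0.14. Over all genes 3.11% were called higher. Nrg1, a ligand of ERBB receptors, was at 344, 425 and 396 CPM in members against 192, 364 and 292, a log2 fold of 0.48 ± 0.07 (adjusted p = 0.0015) and higher in 3 of 3 libraries. Ghr, the growth hormone receptor, Fgfr2 and Igf1r had log2 folds of 0.37, 0.27 and 0.24. All 4 genes span over 100 kb, where the share called higher was 11.1% from 100 to 300 kb and 17.2% over 300 kb. With pairing also on the Malat1 share Nrg1 passed while Ghr (0.34), Fgfr2 (0.14) and Igf1r (0.20) did not. In a list of survival and death genes, Bcl2, which blocks apoptosis, rose (0.46 ± 0.13, adjusted p = 0.047) and Diablo, which promotes it, fell (-0.47 ± 0.13, adjusted p = 0.041), of 28 tested. That is 1 in each direction, near the 3.11% each way over all genes. Neither passed with pairing also on the Malat1 share, at 0.35 and -0.36.

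Secretory products fell in 6 of 15 tested and rose in none, against 3.11% called lower over all genes, with a median log2 fold of -0.23. Besides Sbp, Spink1 and Wfdc3 these were Msmb, Defb50 and Pate4. Msmb was at 4525, 7471 and 6730 CPM in members against 6947, 10091 and 8002, a log2 fold of -0.43 ± 0.05 (adjusted p = 0.0001) and lower in 3 of 3 libraries. With pairing also on the Malat1 share Msmb, Wfdc3 and Defb50 were at 0.15, 0.12 and 0.13, and without barcodes holding 3 or more foreign-marker UMIs at 1.28, 0.11 and 0.69, none past the threshold. Androgen-induced genes fell in 3 of 27 (Sbp, Spink1 and Msmb) and rose in none, with a median of -0.07. Luminal identity genes fell in 3 of 19 (Elf3 at -0.39, Krt18 and Cldn3 at -0.16) and rose in none, and with pairing also on the Malat1 share none of the 3 passed (-0.40, -0.06 and -0.10).

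Proximal luminal genes, which mark the ducts near the urethra, fell in 6 of 15 and rose in none, with a median log2 fold of -0.58. Over all genes 3.11% were called lower. The summed level of the list was close between the classes, at 3766, 3422 and 3417 CPM in members against 3801, 3665 and 3658 in Esr1-0 barcodes. Psca, a surface antigen, was at 2.17, 2.98 and 6.60 CPM in members against 7.59, 32.9 and 33.8, a log2 fold of -2.55 ± 0.18 (adjusted p = 3.8e-07), with no overlap between the classes. Krt4 (-1.36), Ppp1r1b (-1.34) and Cyp2f2 (-0.78) were next. The Psca UMIs of Esr1-0 barcodes came from few of them. In the knockout all 31 came from 7 barcodes. In heterozygote 1, 10 of the 26 barcodes with a UMI held 89.3%, and in heterozygote 2, 10 of 55 held 72.7%.

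Genes of protein folding and stress in the endoplasmic reticulum fell in 5 of 24, among them Ddit3 (-0.31), Herpud1 (-0.20) and Creld2 (-0.17). Ern1, the sensor IRE1 of unfolded proteins, was the riser, at 262, 253 and 152 CPM against 178, 202 and 113 (log2 fold 0.43 ± 0.05, adjusted p = 0.00022). Junb fell among 20 immediate early genes, Hspb1 among 14 heat shock genes and Ebp among 24 genes of cholesterol synthesis, with no riser in these lists. That is 1 faller per list, with 3.11% of all genes called lower, too few to read as a trait of any of these lists. With pairing also on the Malat1 share Ern1 passed (0.28) and Ddit3 (-0.29), Herpud1 (-0.11), Creld2 (-0.09), Junb (-0.15), Hspb1 (-0.09) and Ebp (-0.15) did not. None of 10 steroid enzymes and none of 14 cell cycle genes passed.

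Markers of other cell types were present at low levels in both classes. The fibroblast, smooth muscle, endothelial and immune lists together summed to 883, 842 and 775 CPM in members and 699, 964 and 916 in Esr1-0 barcodes, higher in members in the knockout and lower in both heterozygotes. Fibroblast markers fell in 2 of 10 (Dcn and Apod) and smooth muscle markers in 1 of 10 (Myh11). Pecam1 rose among 5 endothelial markers and Cd74 among 3 immune markers tested. Basal markers rose in 1 of 9 (Dst) and fell in 2 (Krt15 and Apoe), and seminal vesicle markers fell in 2 of 7 (Sprr2f and Pate4). Over all genes 3.11% were called higher and 3.11% lower. Single calls in lists this short are too few to read as a trait of the list. With barcodes holding 3 or more foreign-marker UMIs removed, on far fewer barcodes, 15 of 7305 genes differed. With the barcodes in the top 10% by foreign-marker share removed, an alternative added after the data were seen, 493 of 11494 differed. The part of mixed droplets in the differences was not tested.

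Knockout and heterozygous tissue were compared within the members, over 464, 497 and 1087 barcodes. Of 14102 genes 257 differed (1.82%), with 128 higher (0.908%) and 129 lower (0.915%) in the knockout, by edgeR's quasi-likelihood test. The knockout is a single library, so its genotype and anything else particular to that library cannot be told apart. DESeq2 called 47 genes, 44 of them among the 257.

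Several secretory genes were far lower in knockout members. Sbp was at 57.6 CPM in the knockout and at 1681 and 7523 in the heterozygotes (log2 fold -6.32 ± 0.51, adjusted p = 3.7e-31). Spink1 was at 143 CPM against 898 and 3842 (log2 fold -4.05 ± 0.45, adjusted p = 1.8e-16). The knockout lay below both heterozygotes, which the rule required, and the heterozygotes themselves differed more than 4-fold. In the heterozygotes 10 members held 73.5% and 57.4% of the Sbp UMIs, against 8.43% in the knockout, although nearly all heterozygote members (497 of 497 and 1086 of 1087) and 309 of 464 knockout members had at least 1. Igfbp7, a secreted binding protein, was at 8.30 CPM against 94.2 and 66.9 (log2 fold -3.27 ± 0.38, adjusted p = 6.4e-15). The others named by the rule were Spink5, Nupr1, 2310057J18Rik, Prol1, the tight-junction gene Cldn10, H2-Q10 and Pate14, at log2 folds from -5.03 to -2.09.

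Androgen-induced genes fell in 4 of 27 and rose in none in knockout members, with a median log2 fold of -0.24 against -0.02 over all genes. Among those that fell were Sbp, Spink1 and Fkbp5, with 0.915% called lower over all genes. Fkbp5, a cochaperone of steroid receptors, was at 27.7 CPM against 66.6 and 63.8 (log2 fold -1.23 ± 0.33, adjusted p = 0.013). The knockout lay below 2 heterozygote values that were close together. Mmp7, a secreted protease, was at 902 CPM against 3185 and 2797, and Wfdc2, a proximal luminal gene, had 1 UMI against 98 and 325.

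Cholesterol synthesis genes fell in 2 of 24 (Idi1 and Stard4; median log2 fold -0.60) and cell cycle genes in 3 of 17 (Mki67, Ube2c and Cenpf; median -0.60), with no riser in either list. Over all genes 0.915% were called lower. In depth-matched members the summed cell cycle level was 99.3 CPM in the knockout against 126 and 118 in the heterozygotes. That of cholesterol synthesis was 394 CPM against 670 and 611. Idi1, which makes a building block of sterols, was at 12.8 CPM against 41.7 and 31.3. Ribosomal protein genes had a median of 0.35, with 34 of 35 positive and Rps2 alone past the threshold.

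Genes higher in knockout members were Sva, Ceacam10, Spinkl, Areg, Lcmt1, Vtcn1, Plat, Net1, Spsb1 and Pitpnc1. Sva, the seminal vesicle antigen, had 1291 UMIs in 429 of 464 knockout members and 6 and 1 UMIs in heterozygote members, a difference DESeq2 did not call (adjusted p = 0.082). Ceacam10, a cell adhesion protein known from seminal vesicle, was at 359, 22.6 and 10.6 CPM (log2 fold 4.48 ± 0.32, adjusted p = 3.1e-40) and had a UMI in every knockout member. The Svs genes of the rule, also seminal vesicle products, took a median of 1.35% of UMIs in knockout members and 0.15% and 0.255% in heterozygote members. With luminal barcodes held to under 2% of UMIs from those genes the log2 folds of Sva and Ceacam10 were 8.77 and 4.34. The part of free or carried-over seminal vesicle RNA was not tested.

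Growth factor receptors and ligands rose in 2 of 24 (Areg and Btc) and fell in 1 (Igfbp7) in knockout members, with a median log2 fold of 0.05. Over all genes 0.908% were called higher and 0.915% lower. Areg, a ligand of the EGF receptor, was at 94.0 CPM in knockout members against 27.6 and 11.3 (log2 fold 2.31 ± 0.30, adjusted p = 5.9e-12). In the knockout 120 of 464 members held an Areg UMI, and 10 of them held 46.7% of the total. Btc, betacellulin, another such ligand, was at 13.6 CPM against 1.09 and 1.97 (log2 fold 3.04 ± 0.40, adjusted p = 2e-11). The knockout lay above both heterozygotes for each, which the rule required of Areg. DESeq2 called Btc and not Areg (adjusted p = 1).

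Estrogen-induced genes again moved in different directions. Of 17 tested Pgr and Areg rose, Cited2 fell and the median log2 fold was -0.00. The shares over all genes were 0.908% higher and 0.915% lower. Pgr had 55 UMIs in knockout members and 22 and 18 in heterozygote members, or 5.93 CPM against 3.00 and 0.935 (log2 fold 1.74 ± 0.50, adjusted p = 0.031). Its call was lost with a limit of 3 Esr1 UMIs (adjusted p = 0.60) and with DESeq2 (adjusted p = 1). Cited2, a transcriptional coregulator, was at 55.1 CPM against 166 and 141 (log2 fold -1.48 ± 0.34, adjusted p = 0.0015). Greb1 was at 32.0, 55.8 and 21.2 CPM, the knockout lying between the heterozygotes. The others had log2 folds from -1.30 (Cxcl15) to 0.84 (Ctsd), with Xbp1 at 0.17, Ccnd1 at -0.28, Myc at -0.21, Rara at 0.37, Wnt4 at -0.70, Prlr at 0.54, Nrip1 at 0.39, Gadd45a at 0.23, Fos at -0.28, Sgk1 at -0.00 and Lcn2 at -0.36.

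Of 26 nuclear receptors and cofactors Pgr and Ppargc1a rose and none fell, with a median log2 fold of -0.23. The share called higher over all genes was 0.908%. Ppargc1a, a coactivator of energy metabolism, was at 33.6 CPM against 10.6 and 20.1 (log2 fold 1.10 ± 0.29, adjusted p = 0.015). Esrrg was at 74.8, 69.3 and 108 CPM, with the knockout between the heterozygotes, and Nr3c1 at 41.3, 47.5 and 44.9. The others lay between -0.80 (Rxra) and 0.39 (Rarg, Pparg and Nrip1). Esr2 was at -0.77, Nr3c2 at -0.05, Rxrb at -0.34, Rara at 0.37, Vdr at -0.21, Ppara at -0.50 and Ppard at -0.59. Nr2f1, Nr2f2, Nr2f6 and Esrra were at -0.54, -0.37, -0.41 and -0.43. Ncoa1, Ncoa2, Ncoa3 and Ncor1 were at -0.36, -0.25, -0.04 and -0.08.

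Markers of other cells also differed in knockout members. Immune markers rose in 8 of 11 and fell in 1, against 0.908% higher and 0.915% lower over all genes. The low-count filter can admit a gene on the 1 knockout library alone, so this count of risers is not independent of the filter. C1qa, a complement gene of macrophages, had 66, 0 and 21 UMIs from 8, 0 and 6 members. Tyrobp, an adaptor of myeloid cells, had 53, 6 and 14 UMIs. Smooth muscle markers rose in 2 of 10, with Des at 24.2 CPM against 5.99 and 12.0 and 66.5% of its knockout UMIs in 10 members. The part of mixed droplets in these rises was not tested.

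The same contrast in the Esr1-0 partners gave 156 of 11925 genes (1.31%), with 59 higher (0.495%) and 97 lower (0.813%). Both contrasts use the same 3 libraries, so their values are only set side by side. Sbp had a log2 fold of -6.32 in members and -7.06 in Esr1-0 barcodes, Spink5 -5.03 and -5.52, Nupr1 -4.20 and -4.54, and Igfbp7 -3.27 and -3.87. Sva had 8.92 and 9.31, Ceacam10 4.48 and 4.13, Areg 2.31 and 1.53, and Pitpnc1 1.48 and 1.53. Cited2 had -1.48 and -1.43, and Btc 3.04 and 2.29. Each of these had 1 direction in both classes and passed in both. Pgr had 1.74 ± 0.50 in members and 1.25 ± 0.81 in Esr1-0 barcodes (adjusted p = 0.88 there), on 14, 10 and 11 UMIs.

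**Figure D5:**
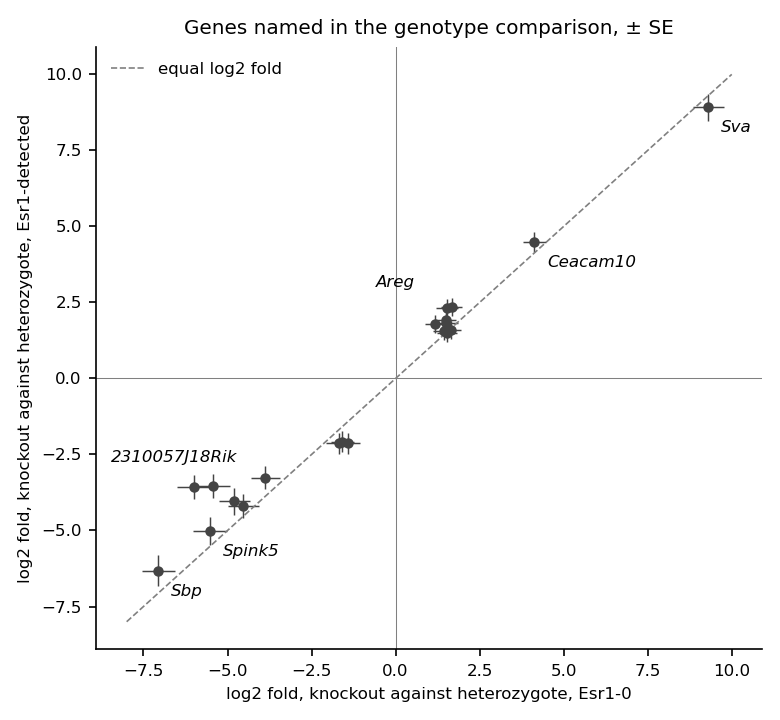
Log2 fold of knockout against heterozygote for the 20 genes named in members, in Esr1-0 barcodes (x axis) and in Esr1-detected members (y axis), each ± SE, with a dashed line where both are equal. Points run from Sbp (-7.06 and -6.32) to Sva (9.31 and 8.92), and each gene has 1 direction in both classes.

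Whether the genotype difference itself differed between the classes was tested as an interaction in the matched sums. Of 12544 genes 53 passed (0.423%), with 39 (0.311%) where the log2 fold of knockout over heterozygote was higher in members and 14 (0.112%) where it was lower. DESeq2 called 4, among them Col6a6, Peak1 and Gm26917. Among genes with a mean of at least 20 CPM the most positive were Tagln, Sbp, Anxa1, S100a6, Spink1, Plcg2, Ahnak, Acta2, Cald1 and Fam107b. Tagln, a contractile protein of smooth muscle, was at 116 CPM in knockout members and 58.7 in knockout Esr1-0 barcodes, at 60.6 against 70.1 in heterozygote 1 and at 54.8 against 112 in heterozygote 2. It was thus higher in members in the knockout and lower in both heterozygotes. The 10 smooth muscle markers all had a positive value and 3 passed (Tagln, Acta2 and Des). Their summed level was 406 CPM in knockout members against 302, 229 against 243 in heterozygote 1 and 261 against 426 in heterozygote 2. In knockout members 10 of 296 barcodes held 87.3% of the Tagln UMIs. The part of smooth muscle RNA in the other values was not tested.

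With the same limit the most negative were Col6a6, Peak1, Gm26917, Hspa1a, Gm44511, Gm48619, 9530003J23Rik, Ren1, Wfdc3 and Msmb. Peak1, a pseudokinase, was at 819 CPM in knockout members against 1522 in Esr1-0 barcodes, at 1214 against 948 in heterozygote 1 and at 1373 against 1313 in heterozygote 2. Ren1, renin, was at 2915 against 3814, 4804 against 4692 and 3288 against 3455. For Peak1 the knockout alone was lower in members, and for Ren1 it had the largest drop. In the knockout, 10 Esr1-0 barcodes held 66.97% of the Peak1 UMIs, 76.12% of the Col6a6 UMIs and 87.42% of the Gm26917 UMIs. Among knockout members the 10 richest held 37.68%, 51.26% and 74.02%. The part of these few barcodes in the negative values was not tested. Among estrogen-induced genes Areg alone passed, of 17 (0.82 ± 0.18, adjusted p = 0.019), at 86.4 CPM in knockout members against 64.9 in Esr1-0 barcodes. Over all genes 0.311% passed in that direction, and DESeq2 did not call Areg. In the knockout 10 barcodes held 54.39% of the Areg UMIs of members and 10 held 60.75% of those of Esr1-0 barcodes. None of 25 nuclear receptors and cofactors passed.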

How the data were processed

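The deposited values are raw UMI counts for each gene and barcode. The authors made them with Cell Ranger 3.1.0, and the build was mm10, as the submitters' processing notes list; the rule that called barcodes as cells is not stated there. Groups come from the genotype labels. Nothing says how many animals made a library, so p-values measure only the spread between these sums. Members, lists and tests were chosen with earlier results of these data known. No doublet caller was run, and marker-based removals were tried in its place. Counts were summed per library and class and tested with edgeR 4.0.16 (R 4.3.3, filterByExpr, TMM, quasi-likelihood), tested beforehand on simulated data, with DESeq2 1.42.0 as an alternative. The 25 genes used by the rule were left out of tests. CPM of single genes use TMM-scaled library sizes, and summed lists plain totals. The fit between classes has 2 residual degrees of freedom, the genotype and interaction fits 1. Named genes are the 10 largest rises and falls with adjusted p under 0.05 and a mean of at least 20 CPM. They also had 1 direction, in all 3 libraries or against both heterozygotes, except in the interaction test, where none was required. Leading genes of 29 lists and all tested nuclear receptor and estrogen-induced genes were named too. A few genes that the rule names, counted in the totals, are not reported here. Thinned shares are exact expected values for drawing UMIs without replacement, with intervals at the rounded count. They replaced single random draws, which moved a share between repeats. Gene spans come from GENCODE vM21, matched to 32527 of 32594 genes.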

Additional observations from a re-analysis of the deposited data

Results flagged for a closer look

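The 20 genes named in the interaction test passed it for a genotype difference that differed between the classes. DESeq2 called 3 of them, Col6a6, Peak1 and Gm26917, and gave the other 17 an adjusted p of 1. Values are the log2 fold of knockout over heterozygote in Esr1-detected barcodes minus that in Esr1-0 barcodes, from edgeR's quasi-likelihood test at an adjusted p under 0.05, with 1 knockout library. Positive values were Tagln (1.74), Sbp (1.49), Anxa1 (1.48), S100a6 (1.22), Spink1 (1.12), Plcg2 (1.11), Ahnak (1.08), Acta2 (1.01), Cald1 (0.88) and Fam107b (0.86). The levels of Sbp and Spink1 were themselves lower in members in 3 of 3 libraries. In heterozygote 1, 10 Esr1-0 barcodes held 94.4% of the Sbp UMIs and 90.8% of the Spink1 UMIs. Lower were Col6a6 (-1.27), Peak1 (-1.10), Gm26917 (-1.01), Hspa1a (-0.90), Gm44511 (-0.61), Gm48619 (-0.51), 9530003J23Rik (-0.44), Ren1 (-0.37), Wfdc3 (-0.34) and Msmb (-0.28). For Col6a6, Peak1 and Gm26917, 10 knockout Esr1-0 barcodes held 76.12%, 66.97% and 87.42% of the UMIs there.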

How the results depend on the processing

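The count of genes that differed between Esr1-detected and Esr1-0 barcodes (740) moved most: DESeq2 142, at least 3 Esr1 UMIs 1183, at least 1 UMI 318, no pairing on depth 417, barcodes with 3 or more UMIs of foreign markers removed 15 of 7305 tested on far fewer barcodes, the top 10% by foreign-marker share removed 493, pairing also on Malat1 share 64. Leaving out 1 library gave 138 to 831. Without the replicate block (library) the count was 0. The genotype count in members (257) was 47 with DESeq2, 127 with at least 3 Esr1 UMIs and 127 without foreign-marker barcodes; in Esr1-0 barcodes (156) DESeq2 gave 25. The interaction count (53) was 4 with DESeq2 and 123 with median-ratio size factors. Where a value gives no cause, the cause was not tested. The knockout's thinned Esr1 share exceeded the heterozygote mean by 2.94 percentage points, 10.7 unthinned and 1.80 to 3.05 in the other alternatives. Reversed without foreign-marker barcodes were Cacng5 (-0.042), Sim1 (-0.27), Wfdc3 (0.11), Msmb (1.28) and Defb50 (0.69). With Malat1 pairing Wfdc3 (0.12), Msmb (0.15) and Defb50 (0.13) reversed. Malat1 itself (-0.020) is held near 0 by that pairing, so its sign is no result. Cd74 (-0.039) reversed without the top 10% by foreign-marker share, a share that counts Cd74 itself. No paired analysis was possible for genotype because knockout and heterozygote share 1 replicate number, given in accession order. Leaving out a library there leaves no residual degrees of freedom and was not run.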
